A study of Mus musculus with 2 samples.

Results

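Cell death genes were compared between 2 Affymetrix arrays of RAW264.7 cells, an established mouse macrophage line. The set was a list of 36 gene symbols covering death receptors, caspases, the BCL2 family, their inhibitors, necroptosis and the inflammasomes. It was matched through the platform's gene table to probe sets that carry 1 symbol. Where a gene had several, the probe set with the highest mean of both arrays was taken. Values were found for 35 of the 36 among 22180 named genes, and Ripk1, which encodes the kinase that links death receptors to necroptosis, was not analysed here.

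One array came from wildtype cells and the other from cells whose genotype label reads HuR-deficient. HuR, the product of Elavl1, binds mRNAs at stretches rich in U or in A and U, and is known to protect many of them from decay. Both cultures were of the same line and had been exposed for 8 hours to high molecular weight poly(I:C), an artificial double-stranded RNA carried in by lipofectamine, at 1 mg/ml as the labels give it. All values therefore describe stimulated cells, and the response to poly(I:C) itself was not analysed here. The sample title calls the HuR-deficient cells HuR-KO, that is, a knockout. The method used to make it is not stated in the labels, nor whether the cells are 1 clone. With 1 array per group there was no replicate, so no test between the genotypes was possible and no p-value is given.

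Cells can die in several programmed ways. In extrinsic apoptosis, ligands such as TNF, FAS ligand or TRAIL bind death receptors, which activate caspase-8 unless the decoy cFLIP blocks it. In intrinsic apoptosis, BH3-only proteins engage the pro-survival BCL2 proteins and free the pore formers, cytochrome c leaves the mitochondria, and APAF1 assembles with caspase-9. When caspase-8 is not active, RIPK1 can engage RIPK3. RIPK3 then phosphorylates MLKL, which breaks the membrane in necroptosis. In pyroptosis, inflammasome sensors activate caspase-1 through the adaptor ASC, gasdermin D forms pores, and NINJ1 ruptures the membrane. Macrophages carry all of these routes, and double-stranded RNA is a known trigger of several.

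Whole-array values gave the setting. Signals are log2 values made by RMA, and differences are log2 signal of the HuR-deficient array minus that of the wildtype array, so that 1 is 2-fold. The median signal was 4.08 on the wildtype array and 4.10 on the HuR-deficient array. Elavl1 itself gave 7.68 and 7.75, a difference of 0.07. The labels do not say which part of the gene was disrupted, so this signal neither bears out the genotype label nor goes against it, and all directions are those of the library labelled HuR-deficient. Of 10 macrophage markers, 9 reached the signal floor of 4.38, the median of all named values, and Mertk did not. Adgre1, which encodes the F4/80 antigen, was the marker with the widest gap, 1.57. Of 23 measured markers of T cells, B cells, neutrophils, fibroblasts and epithelium, 7 reached the floor. The wildtype signals of all 23 lay between 2.78 and 5.39. In RNA from a whole culture, fewer cells of a kind and less RNA per cell cannot be told apart. As a gauge of scatter, each difference is set beside the robust SD of the differences among the 500 genes with the closest mean signal. This gauge is a spread between genes on these arrays, not between replicates.

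The sequences just upstream of 4 members are shown as examples of members with and without motif matches. Nlrp3, the member with the lowest difference, is not among them. Fas and Tnfrsf1a are death receptor genes with higher signals on the HuR-deficient array and a match to GAS, the STAT-binding motif TTC and GAA with any 3 bases between. Casp4 had the most matches to the NF-kappaB motif, GGG and TTCC with any 3 bases between, and nearly equal signals. Bcl2a1a, with one of the widest differences, had no match to either motif or to the ISRE core, GAAA and GAAA with any 2 bases between. The sequences are from RefSeq, assembly GRCm38.p6, plus strand, and end at the base before the gene's first annotated base. For Fas this end lies 12 bases before the start that the promoter table uses, and for the other sequences there is no such gap. Capitals mark motif matches on either strand. Fas lies at chr19:34290409-34290646, Tnfrsf1a at chr6:125349473-125349722, Casp4 at chr9:5308599-5308848 and Bcl2a1a at chr9:88956670-88956919.
Fas: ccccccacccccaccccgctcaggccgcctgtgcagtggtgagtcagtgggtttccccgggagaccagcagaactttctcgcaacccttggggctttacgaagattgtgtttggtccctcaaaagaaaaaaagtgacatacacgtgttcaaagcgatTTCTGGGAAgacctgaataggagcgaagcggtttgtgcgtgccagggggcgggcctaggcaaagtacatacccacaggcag
Tnfrsf1a: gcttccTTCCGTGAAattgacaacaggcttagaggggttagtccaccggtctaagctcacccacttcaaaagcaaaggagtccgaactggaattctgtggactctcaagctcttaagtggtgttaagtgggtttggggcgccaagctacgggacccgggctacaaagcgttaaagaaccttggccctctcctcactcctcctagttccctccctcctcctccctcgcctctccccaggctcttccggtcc
Casp4: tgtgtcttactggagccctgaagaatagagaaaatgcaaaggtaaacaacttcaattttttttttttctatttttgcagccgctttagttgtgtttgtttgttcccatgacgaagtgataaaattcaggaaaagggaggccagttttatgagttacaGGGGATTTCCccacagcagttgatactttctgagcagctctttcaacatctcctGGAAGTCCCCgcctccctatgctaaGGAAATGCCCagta
Bcl2a1a: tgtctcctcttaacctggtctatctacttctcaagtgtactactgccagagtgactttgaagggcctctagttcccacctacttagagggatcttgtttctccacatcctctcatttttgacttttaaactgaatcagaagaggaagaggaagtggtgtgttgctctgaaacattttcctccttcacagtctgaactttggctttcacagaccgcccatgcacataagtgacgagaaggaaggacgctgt

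The motifs were searched in the 250 bases before each start in the RefSeq promoter table, which held 32 of the 36 members in 42 entries. GAS matches, which read alike on both strands, were found for 4 members, Fas, Tnfrsf1a, Casp12 and Ripk1, in 4 of the 42 entries (9.52%). Among all 32851 promoters of the same length the share was 7.02%. Counted from the promoter table's start, the match began 93 bases before it in Fas and 244 bases before it in Tnfrsf1a. Casp12 also had GAS matches, and its signal was lower, not higher, on the HuR-deficient array, below the floor on both. NF-kappaB matches were found for Bcl2l1 and Casp4, in 3 of 42 entries (7.14%), against 4.65% of all promoters. The Casp4 entries overlap and hold the same matches, so they are not independent. By member the count was 2 of 32 (6.25%). An ISRE core was found in 0 of the 42, against 2.98% of all promoters. No matches to different motifs overlapped in the members. A match describes these letters and shows no binding.

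Most members differed little between the arrays, and none reached 2-fold in either direction, where 0.834% of all named genes were at least 2-fold higher and 1.05% were lower by as much. At 1.5-fold, a log2 difference of 0.585, Fas and Bcl2a1a were higher, which is 2 of 35 members (5.71%) against 5.61% of all named genes. Nlrp3 was the member at least 1.5-fold lower, 1 of 35 (2.86%) against 5.36%. The shares of members past either threshold were thus near or below those of all genes. Tnfrsf1a stood just short of 1.5-fold at 0.584 and came to 0.589 when the arrays were quantile-normalised again. Of the 35 members, 21 (60.0%) differed by less than the robust SD of genes of similar signal, against 66.8% of all genes. Their median difference was 0.18, against 0.00 for all named genes, and dropped to 0.12 when the probe sets of each gene were averaged. Differences above 0 were found for 24 members (68.6%), below 0 for 10, and Apaf1 had the same value on both arrays, while 49.2% of all genes were above 0. Among 82 other genes of the same pathways, 46 (56.1%) were above 0, with a median of 0.07. Both lists were chosen with earlier results of these data known, so these shares are descriptive only. Under the 4 other scalings or summaries tried, 23 or 24 members were above 0, and Bik, Bcl2 and Gsdmd changed sides under at least 1 of them. These alternatives rework the same 2 arrays and shift most genes little, so they do not measure reproducibility. Signals reached the floor for 31 members. Tnfrsf10b, Casp12, Apaf1 and Bmf stayed below it on both arrays, so that their signals were not shown to lie above background. The floor is a median and no detection limit, and 7 of 23 measured markers of other cell types also reached it. The highest of these markers, Krt8, read 5.39 on the wildtype array. Signals up to that level were therefore not shown to lie above background either. They include those of Bik, Casp2, Casp6, Pmaip1, Nlrc4, Pycard, Bcl2, Bcl2l1, Bcl2l2 and Bak1, and the wildtype signal of Tnfrsf1a. The cumulative plot of differences shows the members to the right of all genes in its middle and close to them at both ends.

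**Figure D1:**
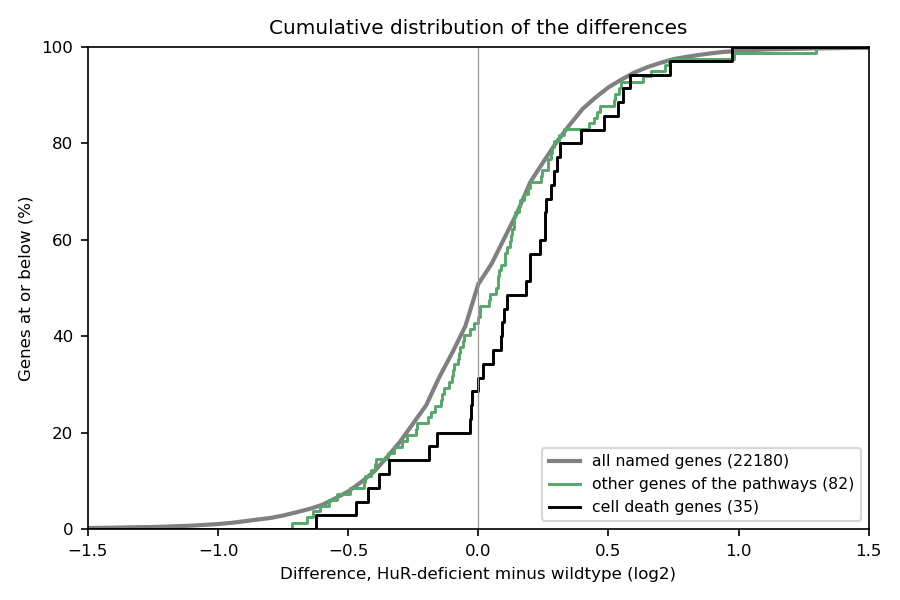
Cumulative share of genes (percent) at or below each log2 difference, HuR-deficient minus wildtype, for 35 cell death genes (black steps), 82 other genes of the pathways (green steps) and all 22180 named genes (grey line), with no filter on signal. The black curve crosses its middle at 0.18 and the grey one at 0.00, and the black curve stays inside the range from -0.63 to 0.97.

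All 3 death receptor genes of the set had higher signals on the HuR-deficient array, under each scaling tried. Fas (Entrez Gene 14102), which encodes the receptor for FAS ligand and is a known target of p53 and of interferon signalling, read 7.13 on the wildtype array and 8.11 on the HuR-deficient array. That difference of 0.97 (1.97-fold) was the highest of all members and came to 3.25 robust SDs, and 0.983% of the genes that reached the floor lay higher. It stayed just short of 2-fold under each scaling tried, ranging from 0.94 to 0.99. Tnfrsf1a (Entrez Gene 21937), the main TNF receptor, gave 5.09 and 5.68, with a difference of 0.58 against a robust SD of 0.32. Its wildtype signal lay within the range of markers of other cell types. Tnfrsf10b (Entrez Gene 21933), the mouse TRAIL receptor, gave 3.76 and 4.32, a difference of 0.56 between signals that both lay below the floor. Other death receptors, which are no members and are named after their values were seen, did not share one direction. Tnfrsf21, which encodes DR6, read 4.78 and 4.24, a difference of -0.54 or -1.64 robust SDs. Its signal on the HuR-deficient array lay below the floor. Tnfrsf25, which encodes DR3, differed by 0.28, within its robust SD. The ligand genes, also no members, all lay above 0 but by unlike amounts. Tnfsf10, which encodes TRAIL, was 2.46-fold higher on the HuR-deficient array (4.66 and 5.95), Tnf differed by 0.31, about its robust SD, and Fasl by 0.20 from signals below the floor.

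Among the apoptotic caspases, Casp8 had the widest difference, and it lay on the other side of 0 from the receptors. Casp8 (Entrez Gene 12370), the initiator caspase of death receptor complexes and a brake on necroptosis, read 7.03 on the wildtype array and 6.60 on the HuR-deficient array, a difference of -0.43 (1.34-fold lower). This was 1.34 robust SDs, and 20.0% of the 500 genes of similar signal differed by at least as much. Cflar, which encodes cFLIP, the catalytically inactive relative that blocks caspase-8, went the other way from 6.01 to 6.31, a difference of 0.29, within its robust SD of 0.34. Casp8 and Cflar are next to each other among protein-coding genes in the RefSeq order. Casp9, the apoptosome's initiator, differed by 0.25 (5.60 and 5.85). Casp6, an executioner caspase, and Casp2, an initiator linked to genotoxic stress, differed by 0.06 and -0.03, well within the scatter of genes of their signal.

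**Figure D2:**
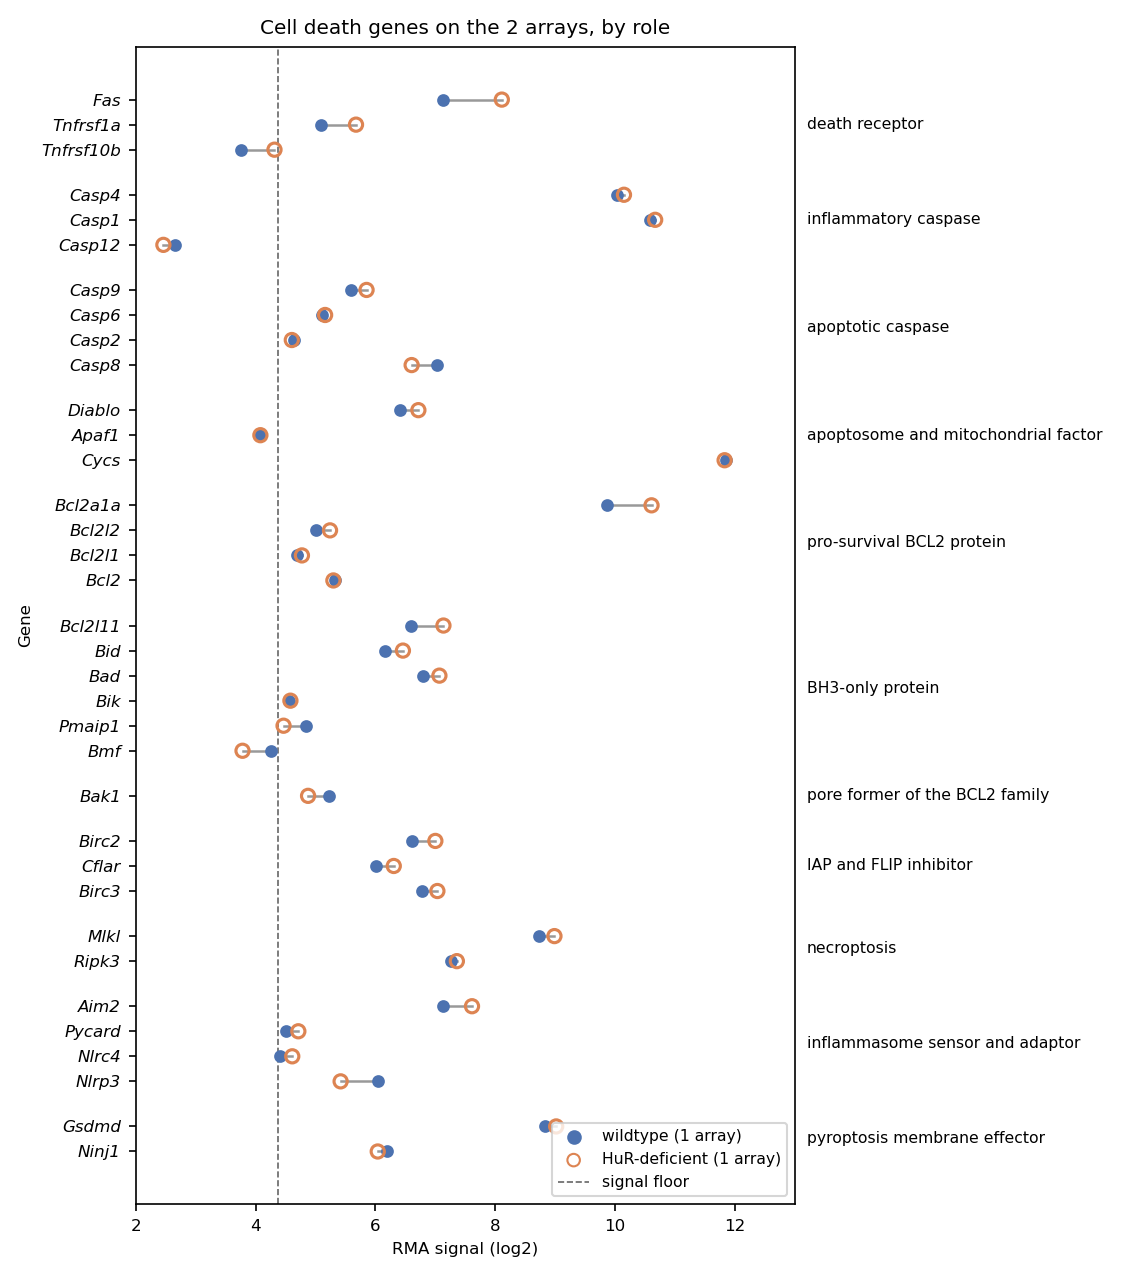
RMA signal (log2, horizontal axis) of 35 cell death genes on the wildtype array (filled blue) and the HuR-deficient array (open orange), grouped by role, with 1 array per genotype and the dashed line at the signal floor of 4.38. The 3 death receptors and the IAP and FLIP genes lie to the right on the HuR-deficient array, while Casp8, Bak1, Bmf, Pmaip1 and Nlrp3 lie to the left; levels of different genes cannot be compared.

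Of the mitochondrial factors, Cycs and Apaf1 were close to equal and Diablo was higher by about the scatter of genes of its signal. Cycs, which encodes cytochrome c, read 11.85 on the wildtype array and 11.82 on the HuR-deficient array. Its 5 probe sets differed by -0.11 to 0.12, and a pair of them held the same values as each other, so they are not independent readings. Cytochrome c has many processed copies in the genome, and which copy each probe set reads is not given. Diablo, whose product releases caspases from IAP proteins, differed by 0.31 (6.40 and 6.72), against a robust SD of 0.31. Apaf1, the scaffold of the apoptosome, had the identical value of 4.08 on both arrays. Such identical pairs occurred for 4.53% of all named genes.

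Among the pro-survival BCL2 genes, Bcl2a1a carried the difference. Bcl2a1a (Entrez Gene 12044) encodes A1, a pro-survival BCL2 protein of myeloid and lymphoid cells that NF-kappaB is known to induce. It read 9.87 on the wildtype array and 10.61 on the HuR-deficient array, a difference of 0.74 (1.67-fold). At 3.61 robust SDs it was the member farthest from the scatter of its own signal range. Bcl2l2, which encodes BCL-W, differed by 0.24 (5.01 and 5.24). Bcl2l1, which encodes BCL-XL, differed by 0.09 (4.68 and 4.77). Bcl2 differed by -0.03 (5.32 and 5.30) and by 0.12 when its 2 probe sets were averaged, so its direction was not stable. These 3 stayed within their robust SDs, and their signals lay within the range of markers of other cell types.

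The A1 genes of the mouse are near-identical copies, and their probe sets can read each other's transcripts. A probe set that names Bcl2a1b and Bcl2a1a gave 10.53 and 11.02, a difference of 0.48. Another, naming Bcl2a1d, Bcl2a1a and Bcl2a1b, gave 11.88 and 12.40, a difference of 0.52. All 3 readings of the family were higher on the HuR-deficient array, and which copy each one reflects cannot be told from these probe sets.

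**Figure D3:**
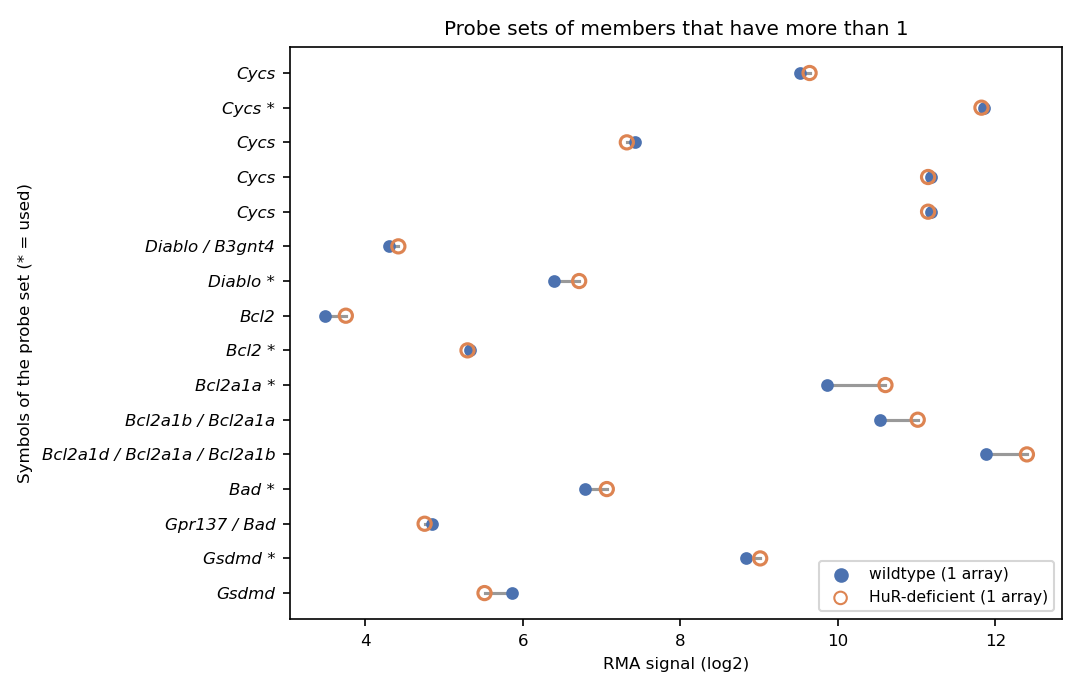
RMA signal (log2) on the wildtype (filled blue) and HuR-deficient (open orange) array for each probe set that names Cycs, Diablo, Bcl2, Bcl2a1a, Bad or Gsdmd, with an asterisk on the probe set used. The 3 Bcl2a1 probe sets all lie higher on the HuR-deficient array, while the second Gsdmd probe set lies lower, at -0.35, and the one used lies higher, at 0.18.

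The BH3-only genes divided. Bcl2l11 (Entrez Gene 12125), which encodes BIM, a potent activator of mitochondrial apoptosis, read 6.60 on the wildtype array and 7.13 on the HuR-deficient array, a difference of 0.54 (1.45-fold) and 1.69 robust SDs. Bid, which carries the caspase-8 signal to mitochondria, differed by 0.30 (6.16 and 6.46). Bad, which binds BCL2 and BCL-XL and is controlled by survival kinases, differed by 0.28 (6.79 and 7.07). Both stayed within their robust SDs, and the probe set that Bad shares with its neighbour Gpr137 differed by -0.10. On the other side, Pmaip1 (Entrez Gene 58801), which encodes NOXA, an antagonist of MCL1 and A1, gave 4.85 and 4.47, a difference of -0.38 or 1.30-fold lower. Bmf, a BH3-only gene tied to the cytoskeleton, differed by -0.47 between signals below the floor (4.25 and 3.78). Bik differed by 0.02 (4.57 and 4.58) and turned to the other side of 0 when the arrays were centred or a trend with signal was removed. Bak1, which encodes the pore former BAK, was 1.27-fold lower on the HuR-deficient array (5.22 and 4.88, difference -0.34), 1.02 robust SDs from 0. Its signals, like those of Pmaip1, lay within the range of markers of other cell types. Genes that promote mitochondrial apoptosis were therefore found on both sides, with Bcl2l11 highest and Bmf lowest. Mcl1, a pro-survival gene that is no member, differed by -0.17 (11.67 and 11.50).

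The 3 inhibitor genes of the set lay slightly higher on the HuR-deficient array, under each scaling tried. Birc2 and Birc3 encode cIAP1 and cIAP2, ubiquitin ligases that keep RIPK1 in its survival state, and are neighbours in gene order. Birc2 read 6.61 on the wildtype array and lay 0.39 higher (1.31-fold) on the HuR-deficient array, 1.25 robust SDs. Birc3, a known NF-kappaB target, read 6.77 and 7.03, a difference of 0.26 that stayed within its robust SD of 0.30. Together with Cflar, 3 of 3 genes of this role were above 0, with a median of 0.29. A wider group of genes listed with the caspases and IAPs, which are no members, lay mostly on the other side. Of its 10 measured genes 8 were below 0, with a median of -0.16. Among all 22180 named genes, 10273 were below 0. Of the 10, 7 stayed within their robust SDs and 3 did not reach the floor. This group also holds a caspase gene, Casp14, and Htra2 (-0.11) and Septin4 (0.14), which are neither caspase nor IAP genes. It is therefore not matched to the inhibitor genes. Within this group, named after their values were seen, Xiap, which encodes the IAP that binds active caspases, differed by -0.32, or -1.01 robust SDs. Birc5, Birc6, Naip2 and Naip5 differed by -0.19, -0.13, -0.10 and -0.24, all within their robust SDs.

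The necroptosis genes differed by little. Mlkl, which encodes the membrane-breaking pseudokinase, read 8.73 on the wildtype array and 8.99 on the HuR-deficient array, a difference of 0.26 against a robust SD of 0.25. Ripk3, the kinase that activates it, differed by 0.10 (7.26 and 7.36). Zbp1, a sensor of Z-form nucleic acid that engages RIPK3 and is no member, differed by 0.18 (10.42 and 10.60). All 3 lay above 0 under each scaling tried, by amounts that are common among genes of their signal.

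**Figure D4:**
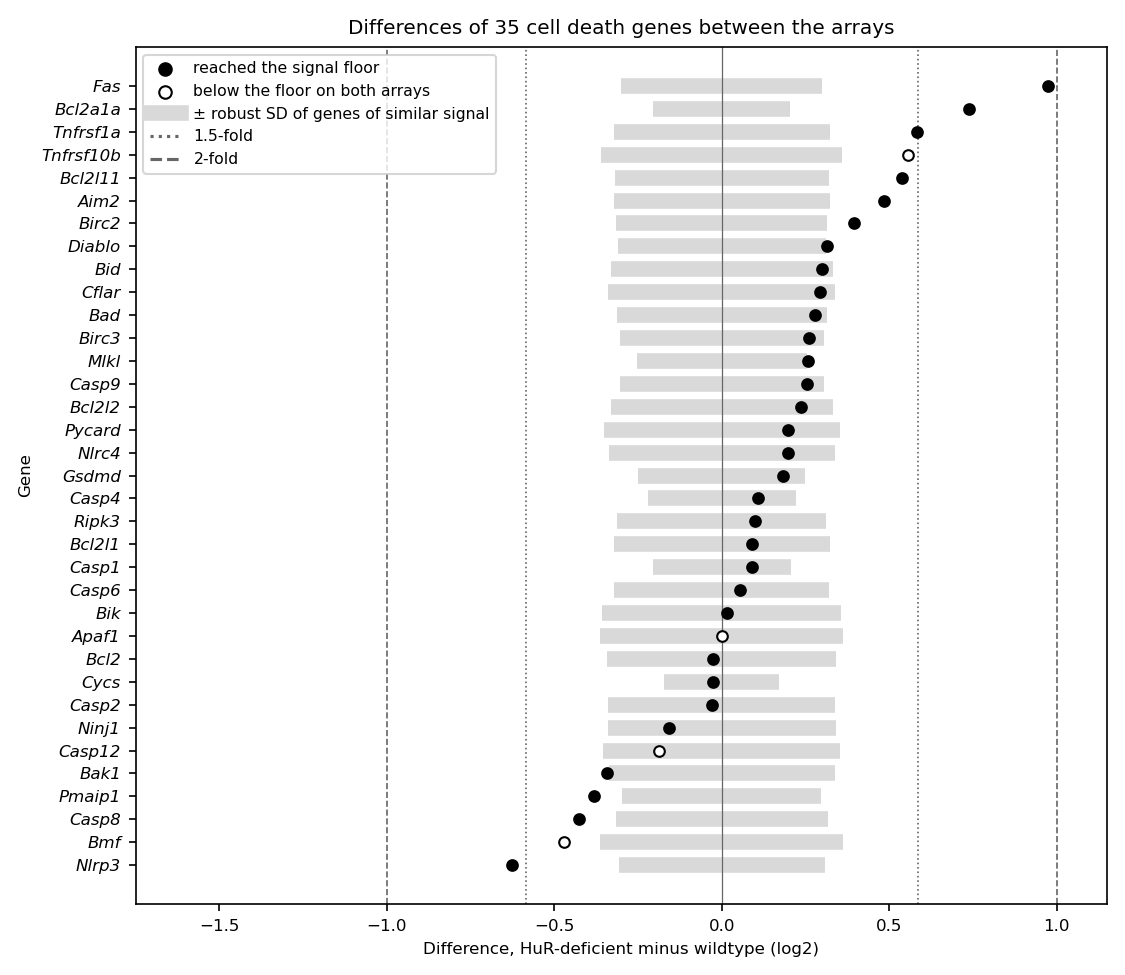
Log2 difference, HuR-deficient minus wildtype, of 35 cell death genes in order of size (points; open where both signals lay below the floor), with grey bars for plus and minus the robust SD of 500 genes of similar signal and lines at 1.5-fold and 2-fold. Fas and Bcl2a1a lie past 1.5-fold on the right, Nlrp3 on the left, none passes 2-fold, and 21 points lie inside their grey bars.

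The inflammasome sensors went in different directions. Nlrp3 (Entrez Gene 216799), the sensor of membrane damage and ion flux whose transcription NF-kappaB primes, read 6.05 on the wildtype array and 5.42 on the HuR-deficient array. That difference of -0.63 (1.54-fold lower) was the lowest of all members, at -2.04 robust SDs, and 4.42% of genes that reached the floor lay lower. Aim2 (Entrez Gene 383619), an interferon-induced sensor of cytosolic DNA, was higher instead, with 7.13 and 7.61, a difference of 0.48 against a robust SD of 0.32. Nlrc4, which responds to bacterial flagellin and secretion systems through NAIP proteins, differed by 0.20 (4.42 and 4.61). Pycard, the gene of the adaptor ASC, also differed by 0.20 (4.52 and 4.71), and both were within their robust SDs. RAW264.7 cells are known to lack ASC protein, and the Pycard signal lay near the floor of 4.38 on both arrays.

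Downstream of the sensors the members differed little between the arrays. Casp1, the inflammasome caspase, read 10.58 and 10.67, and Casp4, the mouse caspase-11 gene that senses lipopolysaccharide, read 10.04 and 10.15. Their differences of 0.09 and 0.11 lay within their robust SDs. Casp12, the next gene in the same cluster, gave 2.65 and 2.46, below the floor on both arrays. Gsdmd, the pore-forming target of these caspases, read 8.83 and 9.02, a difference of 0.18, which turned to -0.08 when its 2 probe sets were averaged. Ninj1, the membrane rupture gene, differed by -0.16 (6.20 and 6.04). The cytokine genes whose products leave through these pores, Il1b and Il18, which are no members, differed by -0.03 and 0.05.

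Other genes of the same pathways were taken from a list of 94, of which 82 had values, and the other 12 were not analysed here. Tnfsf10 was at least 2-fold higher, 1 of 82 (1.22%, against 0.834% of all named genes). No gene was at least 2-fold lower, against 1.05% of all named genes. At 1.5-fold, 6 of the 82 were higher (7.32%, against 5.61% of all named genes) and 4 lower (4.88%, against 5.36%), and the median was 0.07. Among the 62 that reached the floor, 5 were higher (8.06%, against 5.44% of all genes that reached it) and 1 lower (1.61%, against 5.32%). The 5 were Tnfsf10 (1.30), Irf8 (0.98), Nod1 (0.72), Rnf31 (0.66) and Dffa (0.63). Wildtype signals of Tnfsf10 (4.66), Dffa (4.67) and Rnf31 (5.14) lay within the range of markers of other cell types. Irf8 encodes an interferon-regulated transcription factor of macrophages and came to 0.59 when its 2 probe sets were averaged. Nod1 encodes a sensor of bacterial peptidoglycan, and its wildtype signal of 4.37 lay below the floor. Rnf31 encodes HOIP, the catalytic subunit of the linear ubiquitin ligase that restrains RIPK1 and caspase-8 killing, and Dffa encodes the inhibitor of the apoptotic DNase. The lower gene was Tnfaip3, which encodes the ubiquitin-editing protein A20, at -0.61 (5.11 and 4.50). Both signals of Tnfaip3 lay within that marker range too. Casp14, Birc7, Gsdmc and Tab2, named here after their values were seen, made up the rest at 1.5-fold, with signals below the floor. The partners of HOIP, also named after their values were seen, were Sharpin at 0.46 and Rbck1 at 0.27.

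**Figure D5:**
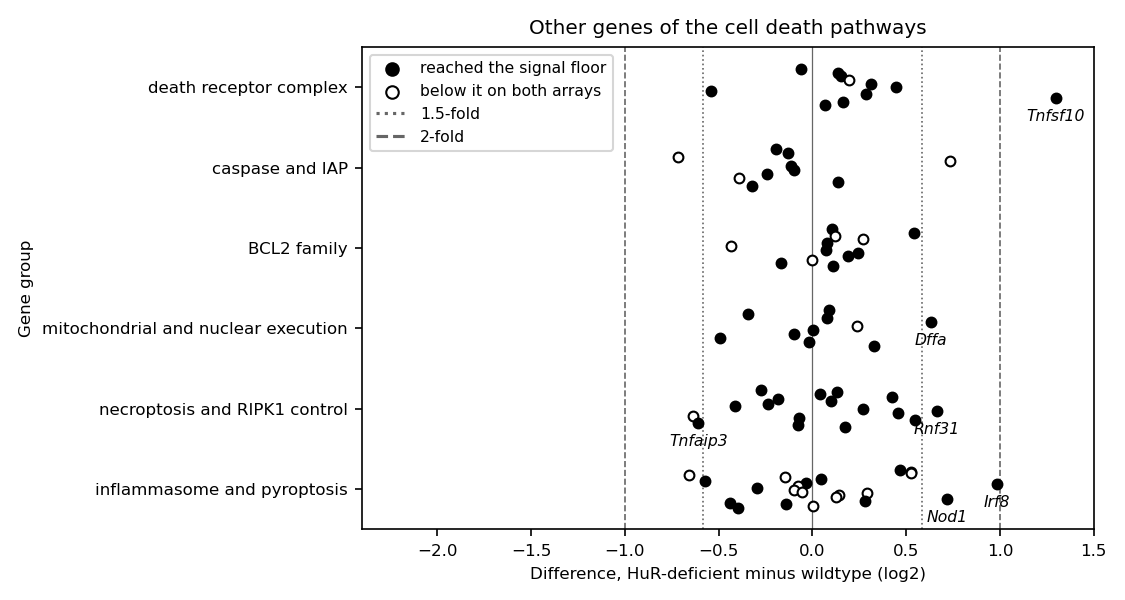
Log2 difference, HuR-deficient minus wildtype, of 82 other genes of the cell death pathways (1 point a gene; open where both signals lay below the floor of 4.38), in 6 groups along the vertical axis, with lines at 1.5-fold and 2-fold. Tnfsf10 at 1.30 is the point past 2-fold, and Tnfaip3 at -0.61 is the named point on the left.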

How the data were processed

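Biotin-labelled RNA of 2 cultures was measured on Affymetrix arrays. The authors deposited log2 values for 41345 probe sets, processed with RMA according to the submitters' processing notes, whose version, annotation and build are not named there. The log2 scale was inferred from the range, 0.434 to 13.8. RMA equalises the arrays' distributions, so a change in total mRNA cannot be seen, and detection calls were not used here.

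Of the probe sets, 23521 had 1 symbol, 1814 several and 16010 none. The signal floor was 4.38, reached by 11905 genes when the higher of both values counts. The robust SD is 1.4826 times the median absolute deviation. The members and lists were chosen with earlier results of these data known. Named genes were all members, up to 12 other pathway genes past 1.5-fold that reached the floor, and a few fixed ligands, effectors and Elavl1. The planned comparison of protein sequences was not made here. Alternatives were median centring, repeated quantile normalisation, removal of a loess trend (span 0.3), averaging of probe sets, no filter and a floor of 5.61. The steps were tested on simulated data. Scripts ran in Python 3.11.15 with pandas 2.3.3, numpy 2.4.6, matplotlib 3.10.9 and statsmodels 0.14.6. The number of arrays limits the precision.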

Additional observations from a re-analysis of the deposited data

Results flagged for a closer look

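The probe sets that carry several symbols of the A1 family were used in no comparison and gave signals above the wildtype array on the HuR-deficient array. The one naming Bcl2a1b and Bcl2a1a differed by 0.48, against a robust SD of 0.20 for genes of similar signal. The one naming Bcl2a1d, Bcl2a1a and Bcl2a1b differed by 0.52, against 0.17. With 1 array per group, no outlying sample could be looked for.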

How the results depend on the processing

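The counts of members at 2-fold were 0 in each direction under all 6 alternatives, and at 1.5-fold they were 2 or 3 higher and 1 lower. The members' median difference ranged from 0.12 with averaged probe sets to 0.26 with the floor at 5.61, always above 0. Of 192 values for 48 genes under the 4 scalings and summaries, 2 moved by more than the robust SD, Gsdmd (-0.08) and Irf8 (0.59), both with averaged probe sets. Averaging cannot change a gene with 1 probe set, which holds for 32 of the 35 members. The median difference of all named genes was -0.03 after centring, 0.01 after the second quantile normalisation and -0.01 after removal of the trend. Few moves past a robust SD could therefore arise, and their rarity does not show that a difference would repeat. Bik, Bcl2 and Gsdmd changed sign under at least 1. Other pathway genes at least 1.5-fold lower numbered 1 as reported. They numbered 2 after centring, after a second quantile normalisation and after removal of the loess trend, 4 with no filter and 0 with the stricter floor, where those higher numbered 3 in place of 5. The last pair of settings changes which genes are counted by construction. A median was called moved at 0.1. No paired analysis was possible because each group has 1 array, and for the same reason no replicate could be left out. Signals below the floor limit Tnfrsf10b, Casp12, Apaf1 and Bmf. Members above it but within the range of markers of other cell types, up to 5.39, are limited too, because the floor is no detection limit. These include Bik, Casp2, Casp6, Pmaip1, Nlrc4, Pycard, Bcl2, Bcl2l1, Bcl2l2 and Bak1, and Tnfrsf1a on the wildtype array.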
